A study of Mus musculus with 6 samples.

Results

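Small nucleolar RNAs (snoRNAs) were examined in polyA RNA of mouse embryonic stem cells that lack Mettl5 and of wild-type cells. They were taken as the genes of the deposited table whose identifier carries the biotype snoRNA in GENCODE M21, which gave 196 of the 24191 genes listed, out of 1507 snoRNA genes in that annotation. The cells were J1, a male mouse embryonic stem cell line, in 3 Mettl5 -/- (knockout, KO) libraries and 3 wild-type (WT) libraries. All 6 came from cells kept for 7 days in serum with LIF, the cytokine that holds mouse embryonic stem cells undifferentiated, and no other allele or agent is named in the labels. The labels state neither how Mettl5 was disrupted nor how many clones were used, nor whether replicates were separate cultures, so a p-value here gauges only how far these libraries spread, and that spread may be technical. Mettl5 itself stood at 3.32 to 3.65 on the TPM scale in the KO libraries and at 48.6 to 50.3 in the WT libraries.

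snoRNAs are short RNAs of the nucleolus that guide the chemical modification of ribosomal RNA or take part in cutting its precursor. Box C/D snoRNAs carry the motifs C (TGATG in the search used here) and D (CTGA) near their ends and guide the methylation of ribose. Box H/ACA snoRNAs fold into a pair of hairpins, end shortly after the letters ACA and guide the conversion of uridine to pseudouridine. In mammals most are cut out of introns of other genes, often genes for ribosomal proteins or translation factors, while a few have promoters of their own. Mature snoRNAs have no polyA tail, so in libraries selected on oligo dT their reads come from a small residue of the mature RNA, from unfinished or tailed forms, or from spliced or unspliced transcripts that contain them, and the table does not separate these sources. METTL5 places N6-methyladenosine on 18S ribosomal RNA, in the ribosomal subunit that several snoRNAs help to make.

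The members that carry the results are shown first, read from the GENCODE M21 transcripts on GRCm38 (also called mm10) and written as DNA from 5′ to 3′. The capitals mark the ACA of H/ACA snoRNAs and the C and D motifs of C/D snoRNAs. These 3 H/ACA snoRNAs were among those that fell most in KO cells, Snora20 at chr17:12922790-12922917, Snora26 at chr5:74093530-74093650 and Snora64 at chr17:24720772-24720905, all on the plus strand.
Snora20: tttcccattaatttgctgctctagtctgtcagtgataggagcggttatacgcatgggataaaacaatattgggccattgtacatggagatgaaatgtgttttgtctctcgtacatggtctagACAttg
Snora26: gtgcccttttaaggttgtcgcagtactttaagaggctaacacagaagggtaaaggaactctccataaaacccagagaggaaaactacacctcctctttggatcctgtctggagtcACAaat
Snora64: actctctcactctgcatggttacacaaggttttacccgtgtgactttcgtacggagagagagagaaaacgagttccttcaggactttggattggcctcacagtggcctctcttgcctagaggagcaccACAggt
Snora31, at chr14:75847905-75848034 on the plus strand, has the same end structure and a like length of 130 nt but was higher in KO cells.
Snora31: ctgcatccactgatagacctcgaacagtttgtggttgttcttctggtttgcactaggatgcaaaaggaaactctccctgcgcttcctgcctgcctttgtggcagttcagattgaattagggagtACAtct
These 2 C/D snoRNAs of 135 and 145 nt were lower in KO cells. They are Snord118 at chr11:69073427-69073561 on the plus strand and Snord15b at chr7:99479563-99479707 on the minus strand.
Snord118: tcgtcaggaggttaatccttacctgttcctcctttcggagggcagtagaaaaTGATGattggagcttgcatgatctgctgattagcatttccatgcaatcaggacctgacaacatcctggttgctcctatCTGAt
Snord15b: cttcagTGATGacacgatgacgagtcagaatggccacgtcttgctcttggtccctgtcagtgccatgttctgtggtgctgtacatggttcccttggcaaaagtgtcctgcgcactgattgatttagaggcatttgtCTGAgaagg
These 3 short C/D snoRNAs of 70 to 72 nt stand for the shorter group. They are Snord104 at chr11:106500993-106501062 and Snord49a at chr11:62603450-62603521, both on the plus strand, and Snord34 at chr7:45126601-45126670 on the minus strand.
Snord104: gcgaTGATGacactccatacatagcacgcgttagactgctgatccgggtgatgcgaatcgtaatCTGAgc
Snord49a: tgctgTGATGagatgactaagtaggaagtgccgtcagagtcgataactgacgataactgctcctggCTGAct
Snord34: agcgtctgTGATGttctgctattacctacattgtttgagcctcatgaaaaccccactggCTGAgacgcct

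snoRNA reads were fewer in KO cells as a class, and nearly all of the shortfall in summed reads lay in the longer snoRNAs. The 196 genes together held 0.02005% to 0.02172% of all scaled reads in the 3 KO libraries and 0.04308% to 0.04762% in the 3 WT libraries, where scaled reads are the authors' estimated reads per gene after their rescaling between libraries. Of the 196, 88 were lower and 5 higher in KO cells, and 103 did not pass the threshold (limma across all genes, Benjamini-Hochberg adjusted p under 0.05, referred to as called). Over all 24183 genes tested 28.9% were lower and 33.6% higher. The median log2 fold change, KO minus WT, of log2(scaled reads + 1) was -0.66 over the snoRNAs and 0.00 over all genes tested. Over 6576 other genes whose mean scaled reads lay between the quartiles of the snoRNAs' means, it was -0.18, with 27.3% lower and 19.6% higher. The middle part of the snoRNAs, between the quartiles, spanned -1.40 to -0.15, and 156 of 196 values were below 0. Every KO library lay below every WT library for 101 snoRNAs and above for 8, where 32.1% and 35.8% of all genes did so. In bulk RNA fewer cells of a type and less RNA per cell cannot be told apart.

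The depth behind these values was small. Depth, taken as the total divided by the value of 1 fragment, was estimated at 40460000, 59660000 and 58840000 fragments in KO replicates 1, 2 and 3 and at 52750000, 47640000 and 38570000 in WT replicates 1, 2 and 3. The median snoRNA rested on 14.5 to 19.5 fragments in the KO libraries and on 27.3 to 33.0 in the WT libraries. In KO replicates 1, 2 and 3, 9, 6 and 4 snoRNAs were listed at 0, while none was in WT libraries. Of the 19 zero values in KO libraries, 14 belonged to snoRNAs that overlap an exon of the gene containing them.

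Split at 100 nt, a boundary chosen after the values were seen, the snoRNAs fell into unlike groups. Of 135 members of at least 100 nt, 78 (57.8%) were lower and 3 (2.22%) higher, with a median log2 fold change of -0.99. Of 61 members under 100 nt, 10 (16.4%) were lower and 2 (3.28%) higher, with a median of -0.16. Over all genes tested 28.9% were lower and 33.6% higher, so both shares of the shorter group lay under those of all genes. The 10 lower calls under 100 nt became 6 without KO replicate 3 or WT replicate 2, and 4 with only genes of a mean of at least 10. Summed over the longer group, scaled reads came to 8230, 7449 and 8007 in KO replicates 1 to 3 and to 16909, 16746 and 18903 in WT replicates 1 to 3. Summed over the shorter group, they came to 2954, 2941 and 3016 in KO replicates 1 to 3 and to 3004, 3286 and 3259 in WT replicates 1 to 3. Every KO sum of the longer group was under every WT sum. The shorter group's sums lay close together, and KO replicate 3 exceeded WT replicate 1.

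**Figure D1:**
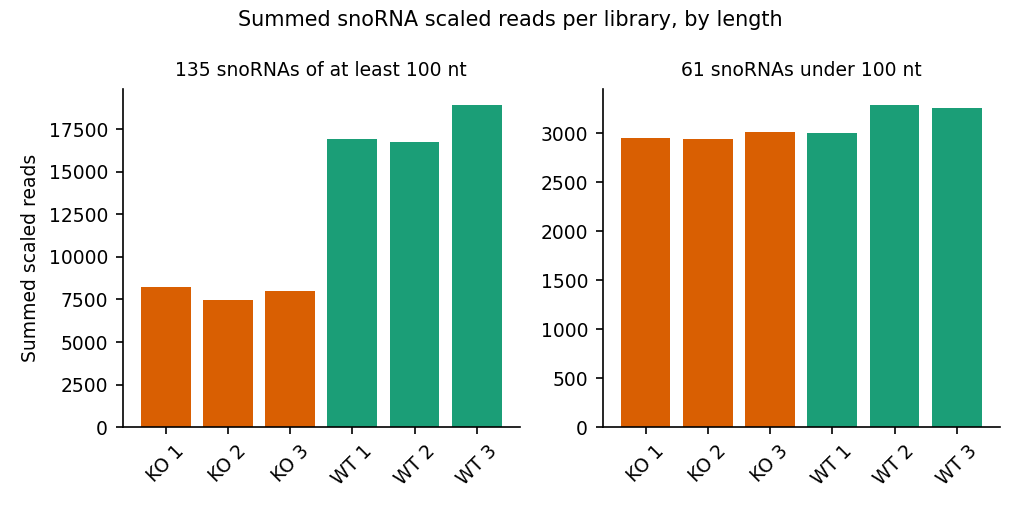
Summed scaled reads (vertical axes, each from 0) of the 135 snoRNAs of at least 100 nt (left) and the 61 snoRNAs under 100 nt (right), with 1 bar per library. In the longer group the 3 KO bars stand at 7449 to 8230 and the 3 WT bars at 16746 to 18903, whereas the shorter group spans 2941 to 3016 in KO and 3004 to 3286 in WT.

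The precision of the length groups was alike, with a median standard error (SE) of the log2 fold change of 0.27 for the longer and 0.28 for the shorter group, although WT levels were not. Median WT scaled reads were 41.4 for the longer and 18.4 for the shorter members. With only genes of a mean of at least 10 over all libraries, 67 of 103 longer ones were lower and 3 higher (median log2 fold change -1.07). Of 44 shorter ones under that filter, 4 were lower and 2 higher (median -0.004). By narrower length classes the median change was -0.16 for 38 members from 60 to under 80 nt and -0.11 for 23 members from 80 to under 100 nt. It was -0.54 for 8 members from 100 to under 120 nt, -0.85 for 28 from 120 to under 130 nt and -0.92 for 63 from 130 to under 140 nt. Above that it was -1.21 for 19 members from 140 to under 160 nt and -1.38 for 17 members of 160 nt and over. The last class includes the 4 Rnu3b copies described below, which share 1 value. Across the 196 members, length and log2 fold change had a Spearman rho of -0.45, across genes that share the same 6 libraries. Within the 135 longer members it was -0.14, within the 61 shorter ones -0.11 and within 104 members with an ACA end, nearly all of them longer, -0.02. The labels state that the RNA was broken to fragments of 100 nt before library construction, and the part this has in the length pattern was not tested.

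**Figure D2:**
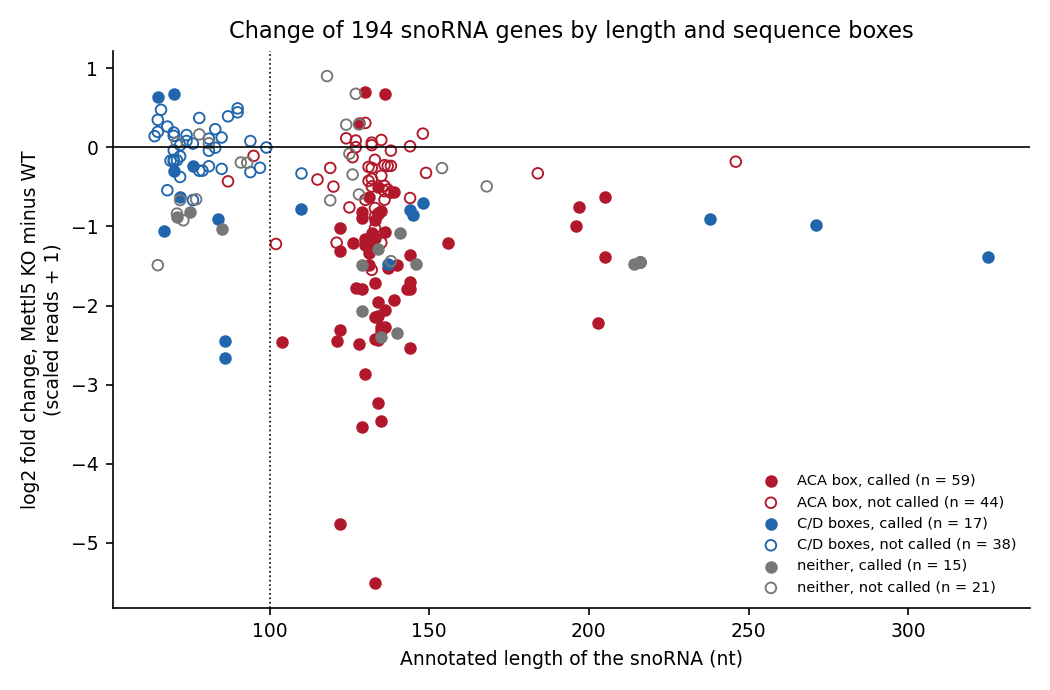
Log2 fold change of scaled reads + 1, KO minus WT (vertical axis), against annotated snoRNA length in nt (horizontal axis) for 194 snoRNAs (the 2 listed at 0 in all KO libraries are not drawn), with colours for the sequence boxes, filled points for calls and a dotted line at 100 nt. The median is -0.16 over the 61 members under 100 nt and -0.99 over the 135 longer ones, the 2 undrawn ones included.

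Length and box class largely coincide, but the C/D class holds both lengths. Of the 196 sequences, 55 had a TGATG starting in the first 20 bases with a CTGA in the last 14 bases, and 104 others had an ACA in the last 8 bases, read on the RNA's own strand. The search found the C/D pair in 28.1% of snoRNAs and the ACA end in 53.1%, and in 0.342% and 11.3% of 292 genes of the biotypes snRNA, miRNA and misc_RNA. Of 26 genes named Snora, 24 had the ACA end, and of 39 genes named Snord, 31 had the C/D pair. The shares over all genes tested were 28.9% lower and 33.6% higher. Of the 55 with the C/D pair, the 9 of at least 100 nt had 8 lower and none higher (median log2 fold change -0.86). The 46 under 100 nt had 7 (15.2%) lower and 2 (4.35%) higher (median -0.02). Of the 104 with the ACA end, the 102 of at least 100 nt had 57 lower and 3 higher (median -0.96), and neither of the 2 shorter ones was called. Of the 37 with neither pattern, the 24 of at least 100 nt had 13 lower and none higher (median -1.37), and the 13 shorter ones had 3 lower and none higher with a median of -0.67, further from 0 than that of the short C/D snoRNAs. The 24 include the 4 Rnu3b copies of the C/D RNA U3, described below. These share 1 value, so 4 of the 13 lower calls rest on 1 measurement. With libraries scaled to equal totals, where the median of all genes is -0.15, the 46 short C/D snoRNAs had 9 lower and 2 higher and a median of -0.17. Their median was 0.06 on the TPM column.

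By symbol, 16 of 26 Snora genes were lower and 2 higher (median log2 fold change -1.04). Of 39 Snord genes, 11 were lower and 1 higher (median -0.20). That is 28.2% lower and 2.56% higher, beside 28.9% and 33.6% over all genes tested, so the share lower was no larger than that of all genes. With a mean of at least 10, 7 of 30 Snord genes were lower and 1 higher. Of the remaining 131 genes, 119 of which have only a Gm number as a symbol, 61 were lower and 2 higher (median -0.80). The Snord genes divided by length, with 6 of 8 lower at 100 nt and over (median -0.82) and 5 lower and 1 higher of 31 under 100 nt (median 0.03).

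Several H/ACA snoRNAs fell by large amounts. Levels are given on the TPM scale, which is per length and is scaled a little differently from the tested column. Snora20, from an intron of the chaperonin gene Tcp1, was at 13.3, 16.4 and 12.1 in KO libraries and at 85.3, 83.9 and 89.2 in WT libraries. These values rested on 13, 24 and 18 fragments in KO and on 109, 102 and 97 in WT. The groups were far apart, with a log2 fold change of -2.49 (SE 0.18, limma adjusted p 1.72e-06). Snora26, which overlaps an exon of the noncoding gene Dancr, was at 20.4, 15.4 and 14.2 in KO and at 99.9, 96.1 and 98.0 in WT libraries (log2 fold change -2.45, SE 0.18, limma adjusted p 1.77e-06). Snora64, which overlaps an exon of the ribosomal protein gene Rps2, was at 24.2, 22.0 and 28.5 in KO and at 97.5, 107 and 115 in WT libraries (log2 fold change -1.96, SE 0.17). In each of these 3 RNAs all KO libraries were far below all WT libraries.

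Smaller falls were seen in abundant members of the class. Snora41, from an intron of the elongation factor gene Eef1b2, averaged 175 ± 26.6 in KO and 394 ± 27.6 in WT libraries on the TPM scale (SD, n = 3; log2 fold change -1.08, SE 0.09). Snora73a and Snora73b, copies of U17, an H/ACA RNA needed for cutting the 18S precursor, lie in introns of Rcc1, the nucleotide exchange factor of Ran. Snora73b averaged 91.0 ± 12.2 in KO and 262 ± 39.6 in WT libraries (log2 fold change -1.39), and Snora73a 111 ± 12.7 in KO and 189 ± 17.3 in WT libraries (-0.63). Neither had whole fragment numbers in any library, and as near copies their split is uncertain. Snora74a, with no containing gene in the table, averaged 46.2 ± 4.42 in KO and 101 ± 9.65 in WT libraries (-0.99).

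Not every H/ACA snoRNA was lower. Snora31, from an intron of Tpt1, the gene of the translationally controlled tumour protein, was at 208, 183 and 185 in KO libraries and at 125, 133 and 120 in WT libraries on the TPM scale. All KO values were above all WT values, on 211 to 285 fragments in KO and 135 to 167 in WT, with a log2 fold change of 0.69 (SE 0.08, limma adjusted p 6.92e-05). Snora78, from the noncoding gene Snhg9, averaged 138 ± 9.89 in KO and 118 ± 11.5 in WT libraries (SD, n = 3; adjusted p 0.0149 by limma for a log2 fold change of 0.30), a call lost with equal totals (0.15, adjusted p 0.18), centred per chromosome (0.12, adjusted p 0.333), on the TPM column (0.22, adjusted p 0.0567) and without KO replicate 3 (0.28, adjusted p 0.0563). Snora57 and Snora17, named after their values were seen, have no containing gene in the table and were not called. Snora57 averaged 137 ± 11.4 in KO and 133 ± 7.42 in WT libraries, and Snora17 116 ± 5.46 in KO and 122 ± 8.26 in WT libraries.

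**Figure D3:**
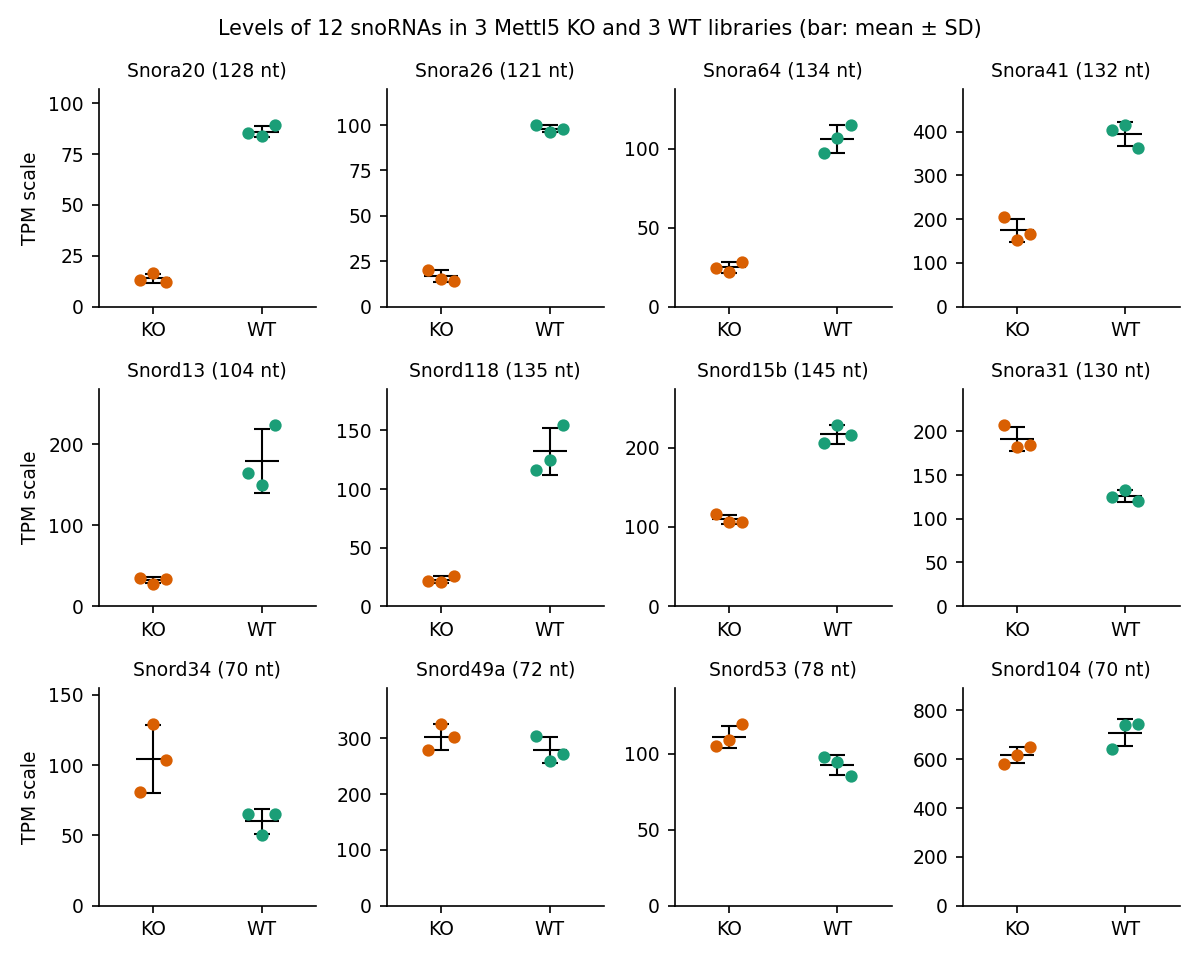
Levels on the TPM scale (vertical axes, from 0) of 12 snoRNAs in the 3 KO libraries (left, orange) and the 3 WT libraries (right, green) of each panel, with the mean and SD as black bars. KO libraries lie below WT libraries in the panels of Snora20, Snora26, Snora64, Snora41, Snord13, Snord118 and Snord15b, and above them in those of Snora31, Snord34 and Snord53, while Snord49a and Snord104 overlap.

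Some C/D snoRNAs take part in cutting the ribosomal RNA precursor, without guiding a methylation or beside it, and those named here are described one by one. Snord13, the U13 RNA, which pairs with 18S ribosomal RNA, was at 34.7, 27.7 and 33.3 TPM-scale units in KO libraries and at 164, 150 and 224 in WT libraries. The highest KO library was far under the lowest WT library, with a log2 fold change of -2.46 (SE 0.22, limma adjusted p 6.93e-06) on 22 to 31 fragments in KO and 123 to 174 in WT. Snord118, the U8 RNA, which serves the maturation of 5.8S and 28S ribosomal RNA, was at 21.4, 20.5 and 25.8 in KO libraries and at 117, 125 and 155 in WT libraries (log2 fold change -2.40, SE 0.18, limma adjusted p 2.86e-06). Neither lies in a gene of the table on its own strand, and both RNAs are known to be transcribed from their own promoters. The C motif of Snord118 starts at base 53, outside the window used for the class count, so it was counted there with neither pattern.

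U3, the most abundant C/D RNA of most cells and a part of the machinery that frees 18S ribosomal RNA, is represented by 5 genes. Rnu3b1, Rnu3b2, Rnu3b3 and Rnu3b4 on chromosome 11 had the same value as each other in each library, and reads from these copies cannot be told apart. Each was at 18.1, 17.9 and 21.5 TPM-scale units in KO libraries and at 51.4, 53.4 and 69.4 in WT libraries (log2 fold change -1.45, SE 0.16, limma adjusted p 3.35e-05). With these copies counted once, 85 of 193 snoRNAs were lower and 5 higher (median log2 fold change -0.64). Rnu3a on chromosome 10, named after its values were seen, was at 20.2, 16.6 and 17.2 in KO and at 47.4, 52.1 and 67.9 in WT libraries (-1.47). The annotation places the Rnu3b copies inside Tex14, a gene of germ cells, which was itself lower (log2 fold change -1.94).

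Other C/D RNAs with a part in precursor cutting gave weaker data. Snord14c and Snord14d, copies of U14 that lie across exons of the chaperone gene Hspa8, were called lower, but on few reads. Snord14d was at 0.153, 0.451 and 10.6 TPM-scale units in KO libraries and at 13.0, 16.3 and 27.1 in WT libraries, and Snord14c at 0, 1.63 and 5.28 in KO and at 9.26, 9.54 and 31.6 in WT libraries. KO libraries were all below WT libraries for both, with values that differed severalfold within each group (limma adjusted p 0.0101 and 0.01). Snord22, the U22 RNA from the noncoding gene Snhg1, averaged 132 ± 20.6 in KO and 178 ± 32.7 in WT libraries (SD, n = 3) and did not pass (log2 fold change -0.34, limma adjusted p 0.115). It passed with equal totals (-0.50, adjusted p 0.031), with values centred per chromosome (-0.56, adjusted p 0.0139), with the replicate block (adjusted p 0.0345) and without WT replicate 2 (-0.50, adjusted p 0.0287).

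Of the 8 Snord genes of at least 100 nt, 6 were lower and 2, Snord22 among them, were not called. Snord15b, which overlaps an exon of Rps3, was at 116, 106 and 107 TPM-scale units in KO libraries and at 205, 229 and 216 in WT libraries (log2 fold change -0.86, SE 0.08, limma adjusted p 1.62e-05). Snord17, of 238 nt in an intron of Snx5 and named after its values were seen, averaged 37.6 ± 1.12 in KO and 77.5 ± 7.60 in WT libraries (SD, n = 3; -0.90). All 6 libraries held a whole number of Snord17 fragments, 168 to 268 in KO and 370 to 520 in WT.

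The short C/D guides, taken by symbol, were mostly near their WT level. Snord104, the most abundant of the named short guides, was at 583, 617 and 651 TPM-scale units in KO libraries and at 644, 738 and 743 in WT libraries. It was called lower by a small amount, with overlapping groups on this scale (log2 fold change -0.30, SE 0.07, limma adjusted p 0.00483). With values centred per chromosome it came to 0.07 and was not called. Snord49a, at 280, 325 and 303 in KO and at 305, 259 and 271 in WT libraries, had partly overlapping groups (log2 fold change 0.03, SE 0.09, limma adjusted p 0.822). Centred per chromosome it was called higher (0.39, adjusted p 0.00523), and with equal totals it came to -0.13 without a call. Snord53, from Wdr43, was at 105, 109 and 119 in KO and at 97.7, 94.3 and 85.3 in WT libraries (log2 fold change 0.16, limma adjusted p 0.287). Its groups did not overlap on this scale, and the test on the TPM column called it higher (0.26, adjusted p 0.0116).

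Among the 5 called higher, 2 were short C/D snoRNAs of ribosomal protein genes. Snord34, from an intron of Rpl13a, was at 80.9, 129 and 103 TPM-scale units in KO libraries and at 65.2, 49.9 and 64.9 in WT libraries (log2 fold change 0.67, SE 0.19, limma adjusted p 0.0123). That call rested on 44 to 95 fragments in KO and 37 to 55 in WT, and it was lost without KO replicate 2 (0.54, adjusted p 0.0524) and with values centred per chromosome (0.46, adjusted p 0.0628). The other was Gm26202 from Rpl17 (0.63, limma adjusted p 0.015), lost without KO replicate 3 (0.51, adjusted p 0.0622) and with values centred per chromosome (0.02). The fifth was Gm22581, an ACA snoRNA from Polr3c, named after its values were seen (0.68, limma adjusted p 0.0391). That call was lost with equal totals (0.53, adjusted p 0.0906), centred per chromosome (0.51, adjusted p 0.0953), with the replicate block (adjusted p 0.0727) and without KO replicate 1, KO replicate 2, WT replicate 1 or WT replicate 2 (0.60 to 0.63, adjusted p 0.0948 to 0.111). On the TPM column 10 snoRNAs were called higher, with equal totals 3, and without either KO replicate 2 or KO replicate 3 also 3.

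Counts of lower snoRNAs are given by their place in the gene that contains them. A containing gene was the same-strand gene of the table, not itself a short RNA, whose span covers the whole snoRNA, and 169 snoRNAs had one, in 122 genes. Of 35 snoRNAs that overlap an annotated exon of that gene, 25 (71.4%) were lower and none higher (median log2 fold change -1.47). Of 134 in introns, 52 (38.8%) were lower and 5 (3.73%) higher (median -0.43). Of 27 with no containing gene, 11 (40.7%) were lower and none higher (median -0.90). Over all genes tested 28.9% were lower and 33.6% higher, so the share lower was furthest above that of all genes in the exonic members. Exonic snoRNAs share sequence with the spliced transcript, so their value depends on how reads were divided. Fragment numbers were whole in all 6 libraries, within 0.02, for 2 of 35 exonic, 102 of 134 intronic and 19 of 27 other snoRNAs.

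The length pattern was present where reads were not divided. Among the 123 members with whole fragment numbers in every library, 32 of 75 members of at least 100 nt were lower and 3 higher (median log2 fold change -0.66). Of 48 shorter members, 5 were lower and 2 higher (median -0.02). In this set 37 of 123 members were lower, against 88 of 196. The share lower, 30.1%, stood close to the 28.9% over all genes tested, while 4.07% were higher beside 33.6%. The median was -0.30 in this set. Over the other 73 members it was -1.15, with 51 (69.9%) lower and none higher. Among intronic members alone, 45 of 82 longer ones were lower and 3 higher (median -0.80), and 7 of 52 shorter ones were lower and 2 higher (median -0.04).

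The extreme values were exonic. Snora81, across an exon of the initiation factor gene Eif4a2, was listed at 0 in all 3 KO libraries and at 13.99, 29.5 and 38.3 on the TPM scale in WT libraries. Gm24029, across an exon of Eif4a1, was likewise listed at 0 in all KO libraries and at 20.6, 9.75 and 28.7 in WT libraries. No fold is given for these. Snora9, across an exon of the noncoding gene Snhg15, was at 0.266 in KO replicate 3 and at or next to 0 in the other KO libraries, against 42.5, 31.1 and 40.3 in WT libraries. In all 3 cases the containing gene stayed well expressed in KO cells, with Eif4a2 at 434 to 440, Eif4a1 at 1567 to 1742 and Snhg15 at 66.3 to 70.2 on the TPM scale in KO libraries, against 617 to 653, 1902 to 2082 and 68.4 to 71.0 in WT libraries. With a floor of 3 fragments per library these 2 members at 0 stay below the median change of the 196 snoRNAs, -0.66. That median therefore cannot depend on the fold given to them.

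Of the 122 containing genes, 67 were higher, 28 lower and 27 not called, with a median log2 fold change of 0.14. The lower ones made 23.0% and the higher ones 54.9%, beside 28.9% and 33.6% over all genes tested. Scaled to equal totals, 45 of them were higher and 48 lower (median -0.02), when 26.1% of all genes were higher and 37.8% lower. In the 169 pairs the snoRNA's own change had a median of -0.63 and the difference, snoRNA minus containing gene, one of -0.61. Tested as that difference in each library, 74 snoRNAs were lower and 3 higher relative to their containing gene (limma over all pairs, adjusted p under 0.05). Over all 1139 same-strand pairs of a contained and a containing gene of any kind, 20.8% were lower and 10.4% higher. In the 970 pairs whose contained gene is no snoRNA, 163 were lower and 115 higher (median -0.21).

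The relative fall also followed length, with 66 lower and 1 higher of 112 pairs of at least 100 nt (median difference -0.98) and 8 lower and 2 higher of 57 shorter ones (median -0.18). In introns alone the counts were 43 lower and 1 higher of 82 and 6 lower and 2 higher of 52. The changes of the snoRNA and of its containing gene had a Pearson r of 0.18 and a Spearman rho of 0.21 over 169 pairs, in which several pairs share a gene and all share the libraries. Of 88 snoRNAs in genes called higher, 29 (33.0%) were lower and 3 (3.41%) higher. Of 42 in genes called lower, 29 (69.0%) were lower and none higher. Of 39 in genes not called, 19 (48.7%) were lower and 2 (5.13%) higher. Over all genes tested 28.9% were lower and 33.6% higher, so the share lower within genes called higher was close to that of all genes.

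**Figure D4:**
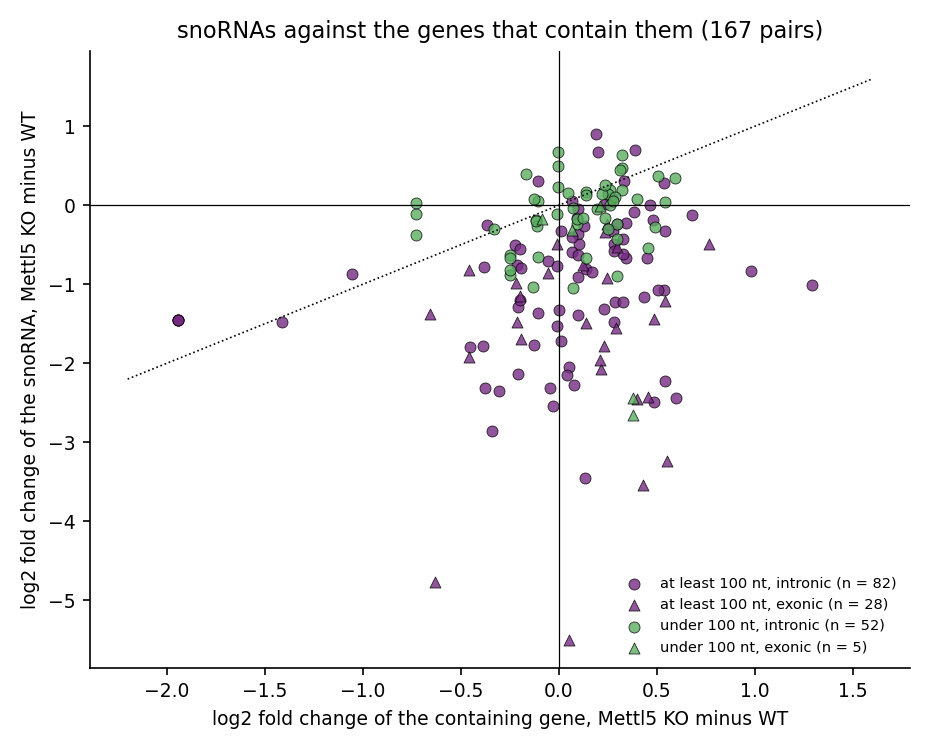
Log2 fold change, KO minus WT, of the snoRNA (vertical axis) against that of the gene that contains it (horizontal axis) for 167 pairs, with length by colour, exonic members as triangles, intronic ones as circles and a dotted line at equal change (the 2 pairs whose snoRNA was listed at 0 in all KO libraries are not drawn). Most purple points, of at least 100 nt, lie under the line (66 of 112 pairs were called relatively lower), whereas green points, under 100 nt, scatter around it.

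Single pairs show the contrast. Tcp1 was higher in KO cells (log2 fold change 0.49) while its intronic Snora20 was lower, a difference of -2.98 (SE 0.15, limma adjusted p 3.02e-05). Eef1b2 was higher by 0.51 and its Snora41 lower, a difference of -1.58 (SE 0.10, limma adjusted p 5.71e-05). Dancr was higher by 0.40 and its Snora26 lower, a difference of -2.84 (SE 0.18). Rps2 was higher by 0.21 and Snora64 lower, a difference of -2.17 (SE 0.15). Snora26 and Snora64 overlap exons of these genes, so their differences also depend on how reads were divided between snoRNA and gene.

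The 3 members higher relative to their containing gene were Snord49a, Snord34 and Snora31. Snord49a was not called by itself while 2410006H16Rik, the noncoding gene around it, was lower by -0.73, so that the difference was 0.76 (SE 0.14, limma adjusted p 0.00571). Snord34 differed from Rpl13a, itself at 0.00, by 0.67 (SE 0.19, limma adjusted p 0.0304). That call was lost without KO replicate 2 (0.52, adjusted p 0.0837), KO replicate 3 (0.65, adjusted p 0.0808), WT replicate 2 (0.55, adjusted p 0.0925) or WT replicate 3 (0.70, adjusted p 0.0623), and with the replicate block (adjusted p 0.0549). Snora31 rose more than Tpt1, which was higher by 0.39, with a difference of 0.30 (SE 0.07, limma adjusted p 0.0159), lost without WT replicate 1 (0.26, adjusted p 0.0514).

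Several genes contain more than 1 snoRNA. Of 34 genes with 2 or more members, 7 had all members lower, 13 some and 14 none. The laminin receptor gene Rpsa, higher by 0.54, contains 3. Gm26448, an intronic ACA snoRNA of 203 nt, was at 36.2, 39.9 and 30.6 TPM-scale units in KO and at 223, 166 and 164 in WT libraries (log2 fold change -2.23, SE 0.12). Snora62, of 149 nt in another intron, was at 21.7, 20.5 and 14.7 in KO and at 27.9, 27.0 and 22.7 in WT libraries (-0.32, limma adjusted p 0.157), which was lower relative to Rpsa (difference -0.87, limma adjusted p 0.00359). Both had whole fragment numbers in every library. The third, Gm24044, lay under 4 on the TPM scale in every library (-1.21, limma adjusted p 0.0294) and its call was lost without KO replicate 2 (-0.85, adjusted p 0.0922) or without any 1 WT library (adjusted p 0.061 to 0.0795).

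The initiation factor genes Eif4a1 and Eif4a2, both lower themselves (-0.19 and -0.46), contain 3 snoRNAs each, all called lower. Gm22988, across an exon of Eif4a1, was at 410, 471 and 449 TPM-scale units in KO libraries and at 1593, 1507 and 1584 in WT libraries (log2 fold change -1.70). Its intronic neighbour Gm25835 had a value of -0.80. Gm24616 and Gm26447, across exons of Eif4a2, had values of -1.93 and -0.81, of which Gm26447 was not called relative to its gene (difference -0.35, limma adjusted p 0.187).

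Of the 34 snoRNAs of ribosomal protein genes, 11 were lower and 2 higher (median log2 fold change -0.17), a share of 32.4% lower beside 28.9% over all genes tested. In Rpl13a, whose snoRNAs have been tied to lipid stress in cultured cells, Snord32a and Snord35a were not called (0.23 and 0.49) beside Snord34. In Rpl17, on chromosome 18, Snord58b and Gm23301 were not called (0.47 and 0.19), and centring per chromosome turned both to -0.14 and -0.42, the second with an adjusted p of 0.0424. In Rpl5, Gm26387, Gm22270 and Snord21 were not called (-0.40, 0.06 and -0.31), and Snord21 ranged from 2.28 to 36.4 on the TPM scale within the KO libraries.

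Other genes with 3 or more members held short C/D snoRNAs. In 2410006H16Rik, Snord65 and Snord49b were not called (-0.38 and -0.11) beside Snord49a. In Wdr43, Gm22858 and Snord92 were not called (-0.67 and 0.12) beside Snord53. Nop58, which encodes a core protein of the C/D particle, contains Snord11, called lower (-0.90, limma adjusted p 0.0209), and Snord70 and Gm26287, not called (-0.43 and -0.24), though Snord70 was lower relative to Nop58 (difference -0.73, limma adjusted p 0.012). The call of Snord11 was lost without KO replicate 3, WT replicate 2 or WT replicate 3 (adjusted p 0.0509, 0.0611 and 0.0622). Rian, an imprinted noncoding gene on chromosome 12, was lower by -0.25, and 3 of its 4 short members were lower: Gm23600 (-0.88), Gm24564 (-0.82) and DQ267102 (-0.63), with Gm25357 not called (-0.67). Each of these 3 calls was lost on leaving out at least 1 library, with adjusted p of 0.0517 to 0.0855, and that of Gm23600 also with the replicate block (adjusted p 0.0502). These 3 are among the 10 members under 100 nt that were called lower.

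**Figure D5:**
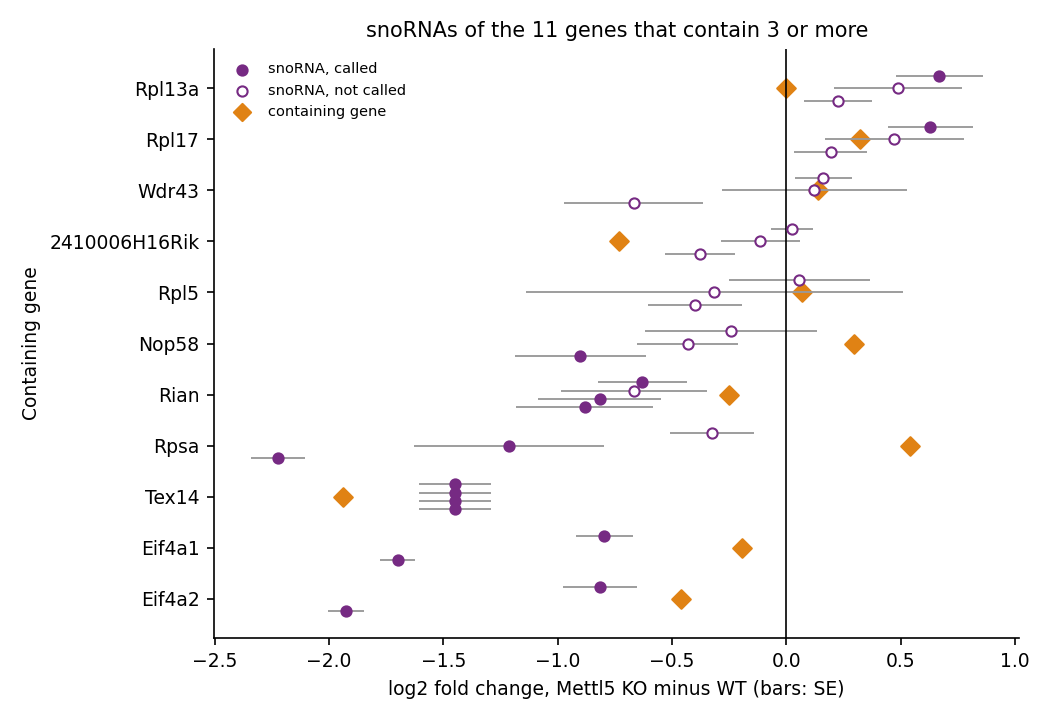
Log2 fold change, KO minus WT (horizontal axis), of the snoRNAs (circles, filled where called, bars for SE) and of the gene itself (orange diamond) for the 11 genes that contain 3 or more (Snora81 in Eif4a2 and Gm24029 in Eif4a1, listed at 0 in all KO libraries, are not drawn). Circles lie left of the diamond for Rpsa, Nop58, Rian, Eif4a1 and Eif4a2, and right of it for 2410006H16Rik, Tex14 and Rpl13a. In Rpl17 and Wdr43 they lie on both sides, and in Rpl5 left of it or next to it.

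Genes for snoRNA proteins and for snoRNA maturation moved both ways. Of 46 listed genes in the table, 22 were higher, 17 lower and 7 not called, with a median log2 fold change of 0.03, where 33.6% of all genes tested were higher and 28.9% lower. The balance turned with equal totals (16 higher, 24 lower, median -0.12). Of the 4 core proteins of the C/D particle, the methyltransferase Fbl was lower (-0.12), and Nop56 (0.46), Nop58 (0.30) and Snu13 (0.17) were higher. Of the 4 of the H/ACA particle, the pseudouridine synthase Dkc1 (0.19) and Gar1 (0.13) were higher, and Nop10 (-0.21) and Nhp2 (-0.10) lower. With equal totals 2 of the C/D proteins were higher and 1 lower, and 2 of the H/ACA proteins were lower and none higher.

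Among 11 assembly factors 7 were lower and 4 higher, where 28.9% of all genes tested were lower and 33.6% higher. Coil, the scaffold of Cajal bodies, averaged 23.6 ± 0.79 in KO and 49.9 ± 0.921 in WT libraries on the TPM scale (SD, n = 3), a log2 fold change of -1.03 with a limma adjusted p of 8.63e-09. The H/ACA assembly factors Shq1 (-0.62) and Naf1 (-0.53) and the C/D assembly factor Znhit3 (-0.57) were lower too. Coil and Znhit3 lie on chromosome 11, Shq1 on 6 and Naf1 on 8. Of 27 processing factors 13 were higher, 7 lower and 7 not called. That balance turned with equal totals (11 higher, 14 lower) and with values centred per chromosome (6 higher, 13 lower). The poly(A) polymerase Tent4b, which tags RNAs for trimming by the exosome and lies on chromosome 8, was lower (-0.65). The exosome helicase Mtrex (0.38) and the nuclear exonuclease Xrn2 (0.30) were higher, and Dbr1, which opens intron lariats, was not called (-0.03).

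Other RNAs that lack a tail, or are short, were measured in the same libraries. Of 69 snRNA genes 29 (42.0%) were lower and 3 higher (median log2 fold change -0.41). Of 19 scaRNA genes, relatives of snoRNAs in Cajal bodies, 6 (31.6%) were lower and 2 higher (median -0.33). Of 68 histone genes of the Hist1h to Hist4h clusters, 63 (92.6%) were lower and 0 higher (median -0.99). Over all genes tested 28.9% were lower and 33.6% higher. Summed histone scaled reads were 37736 to 38358 in KO and 60957 to 76742 in WT libraries. Of 173 miRNA genes 23 were lower and 22 higher (median -0.23), of 50 misc_RNA genes 6 and 6 (median -0.24), and of 5 rRNA genes 1 and 0 (median 0.11). Summed snRNA scaled reads were 12972 to 15176 in KO and 19886 to 25426 in WT libraries. The part of the polyA selection in these values was not tested.

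Chromosomes 6, 8 and 11 were looked at apart, a choice made with earlier results of these libraries known. Of their 43 snoRNAs, 26 were lower and none higher (median log2 fold change -1.22), and of 153 elsewhere 62 were lower and 5 higher (median -0.57). Chromosome 11 held 20 longer members, 15 of them lower, and 9 shorter ones, 1 of them lower. Its longer members include the 4 Rnu3b copies, which share 1 value. The share of all genes lower on chromosomes 6, 8 and 11 was not counted. These counts therefore do not separate a chromosome-wide shift from a snoRNA change. With values centred per chromosome, 97 of the 196 snoRNAs were lower and 2 higher (median -0.82, against -0.10 over all genes). The length pattern was present outside these chromosomes, with 54 lower and 3 higher of 103 longer members (median -0.81) and 8 lower and 2 higher of 50 shorter ones (median -0.02).

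Defining genes of embryonic stem cells were expressed in both groups, though 7 of 9 were lower and 1 higher in KO cells, with a summed level of 4924 to 5367 on the TPM scale in KO and 5407 to 5803 in WT libraries. Of 10 feeder fibroblast markers 9 were higher and 1 lower (summed 35.6 to 36.9 in KO, 14.6 to 17.2 in WT). Of 5 trophectoderm markers 4 were higher (summed 1501 to 1559 in KO, 50.8 to 51.0 in WT). Krt8 and Krt18 made up most of that sum, with means of 782 and 737 in KO and 29.4 and 20.9 in WT libraries. Cdx2 averaged 5.38 in KO and 0.258 in WT libraries and Gata3 1.91 and 0.111, while Elf5 was not called (0.139 and 0.212). Of 5 mesoderm markers 4 were higher and 1 lower (summed 71.9 to 78.4 in KO, 4.74 to 5.63 in WT). T, with means of 63.4 in KO and 1.18 in WT libraries, made up most of the KO sum. All 5 primitive endoderm markers were lower (summed 11.1 to 12.1 in KO, 28.5 to 30.4 in WT), and of 5 neuroectoderm markers 2 were higher and 2 lower (summed 80.7 to 83.7 in KO, 90.7 to 92.4 in WT). No marker was at 0 in all libraries of a group. Over all genes tested 33.6% were higher and 28.9% lower. The part of these shifts in the snoRNA result was not tested.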

How the data were processed

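PolyA RNA of 3 Mettl5 KO and 3 WT libraries was selected in 2 rounds on oligo dT, fragmented to 100 nt and made into stranded libraries from 0.1 µg, per the labels' protocols. The authors used kallisto and sleuth on mm10, per the submitters' processing notes (the annotation, strandedness and versions were not given in the sources used here). Both columns of the deposited table, one of scaled reads and one on a TPM scale, hold signal values that the authors rescaled. Because they are no counts, changes were tested with limma 3.58.1 in R 4.3.3, using an intensity trend, on log2(scaled reads + 1) of 24183 genes with a mean of at least 1. P-values were Benjamini-Hochberg adjusted over all genes. Fold changes understate low genes.

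Each library has a step worth 1 fragment. Among genes other than the snoRNAs, 29.3% to 32.1% of scaled reads from 0.5 to 40 lay within 0.02 of whole multiples. At the median trial step the share was 3.34% to 3.54%. Most of these values were not whole, so no count test was run. Among the snoRNAs 74.3% to 82.4% of values in that range were whole. Names, lengths and positions came from GENCODE M21 (23829 identifiers matched, 362 did not). Of several containing genes, a protein-coding one and then the shortest was used. Python 3.11.15 served for tables (pandas 2.3.3, numpy 2.4.6) and matplotlib 3.10.9 for plots. The tests were tried on simulated data.

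The snoRNAs, the gene lists and the rule for names were chosen with earlier results of these data known. Members named are 22 fixed symbols, 14 of them listed, the 8 smallest p-values in each direction, the 8 highest levels, the members of genes with at least 3, and the 5 strongest pairs in each direction, Gm numbers left out except in the fourth part. Alternatives were a replicate block, voom weights, the TPM column, other pseudocounts, filters and scalings, and leaving out each library.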

Additional observations from a re-analysis of the deposited data

How the results depend on the processing

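In every scaling, filter, pseudocount, weighting and left-out library tried, more snoRNAs were lower than higher, with 71 to 103 lower. All 88 lower calls were kept with equal totals, without a filter, with pseudocounts of 0.5 or 5 and with voom weights, 84 with values centred per chromosome and 87 on the TPM column. Same-numbered KO and WT libraries had correlated deviations of 0.00664, 0.0108 and 0.0316, so they share only a number; the replicate block gave 84 lower and 4 higher. The median of all genes moved to -0.15 with equal totals and to -0.10 with values centred per chromosome.

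The median snoRNA change was -0.79 with equal totals, -0.82 centred per chromosome, -0.57 with a mean of at least 10, -0.50 with a pseudocount of 5, and, in choices made after seeing the data, -0.30 over members at whole multiples and -0.54 without exonic members. Higher snoRNAs numbered 3 with equal totals, 2 when centred and 10 on the TPM column, where 5 were higher relative to the containing gene. With a mean of at least 10, 147 snoRNAs were tested, and 7 Snord genes and 4 members under 100 nt were lower. Among intronic members 49 were lower relative to the containing gene. Among members at whole multiples, 37 were lower, 32 of at least 100 nt and 5 shorter. Centring gave 12 higher snoRNA protein and maturation genes. Apart from the choices with fewer members, the cause was not tested.

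Leaving out each library in turn gave 78 to 86 lower and 3 to 6 higher snoRNAs, a median of -0.72 to -0.60, 16 to 17 lower Snora and 9 to 11 lower Snord genes, 70 to 77 lower members of at least 100 nt and 6 to 10 shorter, 58 to 70 lower and 2 to 3 higher pairs, and 22 higher and 14 to 18 lower snoRNA protein and maturation genes. The 3 higher followed the loss of KO replicate 2 or 3, and the 6 shorter that of KO replicate 3 or WT replicate 2.

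Of 52 named members, signs turned in these. With equal totals Gm22270 was at -0.094, Snord49a at -0.13 and Snord92 at -0.011. Centred per chromosome, Gm22270 was at -0.15, Gm23301 at -0.42, Snord104 at 0.0702, Snord49b at 0.25, Snord53 at -0.022, Snord58b at -0.14 and Snord92 at -0.062. On the TPM column Gm22270 was at -0.0395. Over the left-out libraries Gm22270 ranged from -0.19 to 0.44, Gm26287 from -0.52 to 0.075, Snord21 from -0.92 to 0.75, Snord49a from -0.0196 to 0.11, Snord49b from -0.24 to 0.066 and Snord92 from -0.15 to 0.50. Of these, Snord104 alone was called in the test reported. The median snoRNA rested on 14.5 to 19.5 fragments in KO libraries, which limits the precision of single members.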
